A study of Rattus norvegicus with 11 samples.

Results

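The genes of the vascular growth factor VEGF, of endothelin and of angiotensin conversion were followed in rat alveolar epithelial cells. Members were chosen by symbol: Vegfa, Flt1, Kdr, Edn1, Ednra, Ednrb and Ace, with every probe set annotated to exactly 1 of them. Of the 7 genes named, 5 were measured by 8 probe sets, out of 4736 genes and 8740 probe sets tested on the array. Vegfa had 4 probe sets, and Flt1, Kdr, Edn1 and Ace had 1 each. The endothelin receptor genes Ednra and Ednrb had no probe set assigned in the annotation used and were not analysed here. A further probe set annotated to Ace together with another gene was left out.

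Total RNA was hybridised to 11 Affymetrix rat arrays in 3 groups. Cultured TII were alveolar type II cells on day 7 of culture (3 arrays), fresh TI were freshly isolated alveolar type I cells (4 arrays), and fresh TII were freshly isolated type II cells (4 arrays), both on day 0. No treatment, genetic change, strain, sex or age of the rats is given in the labels. Every array has the same source entry, which names TI cells, so the groups follow the sample descriptions and the day in the titles. Whether the arrays within a group represent different animals or cultures is not stated in the labels, so p-values measure the spread between these arrays, which may be technical.

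VEGF-A is a secreted glycoprotein that makes endothelial cells divide, migrate and become permeable, and in the lung the alveolar epithelium is one of its sources, facing the capillaries across a thin wall. Its receptors are tyrosine kinases: Kdr carries most of the growth and permeability signal, and Flt1 binds VEGF-A tightly and can hold it away from Kdr. Edn1 encodes the precursor of endothelin-1, a peptide that constricts vessels and airways. Ace encodes angiotensin-converting enzyme, which makes angiotensin II and breaks down bradykinin, and is known above all from lung endothelium.

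The promoters of Vegfa and Edn1 are shown because these were the member genes with a higher signal in cultured TII than in fresh TII cells. Each stretch runs from 250 bases before to 50 bases after a RefSeq gene start of the rat build GRCr8. Vegfa lies at chr9:22452854-22468194 on the plus strand, and the more upstream of its 2 listed starts gives the window chr9:22452604-22452903. Edn1 lies at chr17:22660799-22666687 on the minus strand, with the window chr17:22666638-22666937. Capitals mark matches, on either strand, to 5 short motifs. The hypoxia motif was spelled ACGTG, and is the core of the element that hypoxia-inducible factors bind. The GC box, a site of Sp-family factors found in many promoters without regard to tissue, was spelled GGGCGG. The AP-1 site, bound by dimers of Fos and Jun proteins, was spelled TGANTCA, where N is any base. The GATA site, named after the zinc-finger factors that bind it, was spelled AGATAA. The TATA box, which helps place the start of transcription, was spelled TATAAA.
Vegfa promoter: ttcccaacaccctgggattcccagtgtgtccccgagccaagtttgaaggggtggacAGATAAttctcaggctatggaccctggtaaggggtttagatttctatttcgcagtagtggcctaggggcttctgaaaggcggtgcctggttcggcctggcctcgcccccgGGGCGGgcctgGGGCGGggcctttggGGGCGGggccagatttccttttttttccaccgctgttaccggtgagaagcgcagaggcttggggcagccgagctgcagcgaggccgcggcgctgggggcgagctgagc
Edn1 promoter: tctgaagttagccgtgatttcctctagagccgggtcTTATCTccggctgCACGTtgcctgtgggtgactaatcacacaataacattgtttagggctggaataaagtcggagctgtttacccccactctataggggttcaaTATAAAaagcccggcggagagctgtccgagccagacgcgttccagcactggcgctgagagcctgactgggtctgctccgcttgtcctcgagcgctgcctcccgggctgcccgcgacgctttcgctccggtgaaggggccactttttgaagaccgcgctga
In the Vegfa window, 63.3% of bases were G or C. It held 3 GC boxes, starting 84, 73 and 58 bases before the gene start, and 1 GATA match 194 bases before it. It held no match to the hypoxia, AP-1 or TATA motif. In the Edn1 window, 57.3% of bases were G or C. It held 1 TATA box match 110 bases before the start and, on the opposite strand, 1 hypoxia motif match at 201 bases and 1 GATA match at 214 bases, with no match to the GC box or the AP-1 site. None of the matches in these windows overlapped another. Of 33469 promoter windows of the same length in the RefSeq table, 33.1% held the GC box, 19.3% the hypoxia motif, 14.2% the TATA box, 11.6% the GATA site and 7.33% the AP-1 site. A match describes letters only, and binding was not measured. Bases more than 250 before the start were not searched, so the absence of a match holds for these windows only.

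The deposited values are log2 signals, and every level below is on that scale, as is every difference. Array medians lay between 5.43 and 5.51, and the arrays of fresh TI cells had a smaller standard deviation over probe sets (1.77 to 1.85) than those of cultured TII (1.95 to 1.97) and fresh TII cells (1.92 to 1.95). The cell labels were checked against marker lists. The mean signal over 8 type I markers was 6.78 to 7.50 on the arrays of cultured TII, 8.81 to 8.97 on those of fresh TI and 6.04 to 6.11 on those of fresh TII cells. Over 9 type II markers it was 6.58 to 7.05 in cultured TII, 8.11 to 8.99 in fresh TI and 10.81 to 10.96 in fresh TII cells. The fresh TI and fresh TII labels thus matched the order of their markers, and fresh TI arrays carried type II marker signal above that of cultured TII arrays. The part of that signal in the differences below was not tested.

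Differences were tested with limma over all 8740 probe sets and called at a Benjamini-Hochberg adjusted p under 0.05. In cultured TII minus fresh TI, 7 of the 8 member probe sets were called, against 59.9% of all probe sets: 1 was higher and 6 were lower (24.2% and 35.7% of all). In cultured TII minus fresh TII, 6 were called, against 33.4%: 5 were higher and 1 was lower (19.1% and 14.3%). For fresh TI minus fresh TII, 5 were called, against 54.7%: 4 were higher and 1 was lower (34.3% and 20.4%). The share of members called in the comparisons with fresh TI therefore stood beside a background in which more than every other probe set was called. The median difference over the members was -0.40, 1.11 and 0.64 in these comparisons, against -0.13, -0.01 and 0.12 over all probe sets. Vegfa supplied 4 of the 8 member probe sets, so it weighed 4 times in these counts and medians. All 4 were among those called higher in both comparisons with fresh TII. In those comparisons the only other member called higher was Edn1, for cultured TII minus fresh TII.

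**Figure D1:**
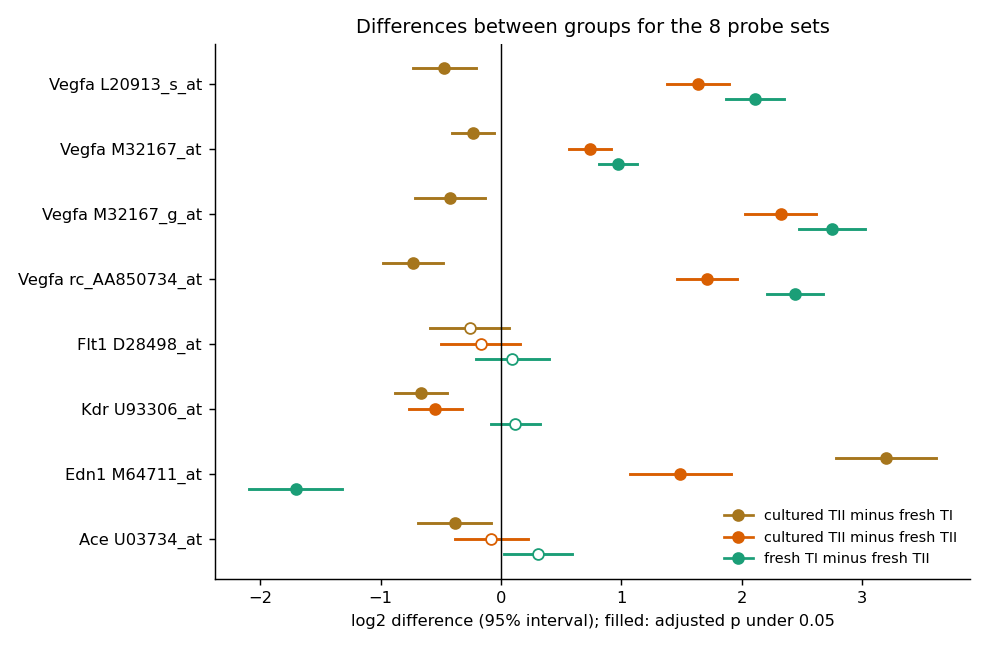
Log2 difference and 95% interval (horizontal axis) of each of the 8 member probe sets (rows) for the 3 comparisons, with filled points where the adjusted p was under 0.05. The Vegfa rows lie right of 0 in both comparisons with fresh TII, while Edn1 lies right of 0 for cultured TII and left of 0 for fresh TI minus fresh TII.

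Vegfa, the ligand gene (Entrez gene 83785), had its lowest signal in fresh TII cells on each of its 4 probe sets. Probe set L20913_s_at read 8.92, 8.70 and 8.57 in cultured TII, 9.08, 9.32, 9.34 and 9.05 in fresh TI, and 6.85, 7.29, 7.09 and 7.12 in fresh TII cells. Probe set M32167_at read 8.75, 8.74 and 8.63 in cultured TII, 8.83, 8.91, 8.96 and 9.05 in fresh TI, and 7.84, 7.95, 8.01 and 8.08 in fresh TII cells. On both, every fresh TI array was above every cultured TII array, and every cultured TII array was above every fresh TII array. Probe set M32167_g_at read 6.93, 6.63 and 6.48 in cultured TII, 6.84, 7.26, 7.19 and 7.14 in fresh TI, and 4.21, 4.34, 4.25 and 4.64 in fresh TII cells. Here the highest cultured TII array exceeded the lowest fresh TI array, and both groups lay clear of fresh TII. Probe set rc_AA850734_at read 8.24, 8.10 and 8.09 in cultured TII, 8.58, 9.04, 9.03 and 8.85 in fresh TI, and 6.35, 6.63, 6.35 and 6.40 in fresh TII cells. Its 3 groups did not overlap.

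**Figure D2:**
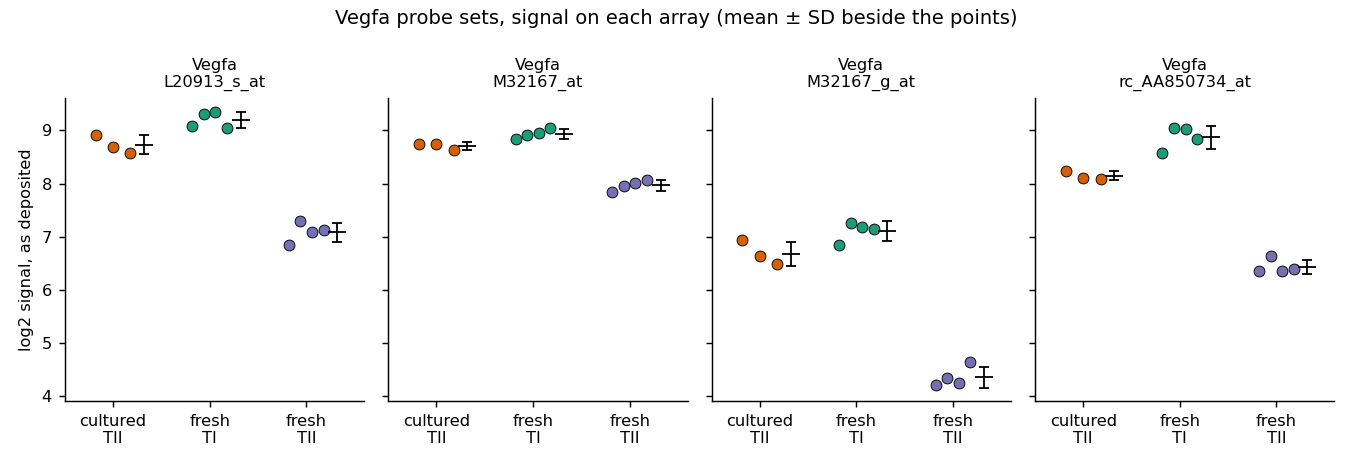
Log2 signal (vertical axis) of the 4 Vegfa probe sets, a panel each, on every array of cultured TII (n = 3), fresh TI (n = 4) and fresh TII cells (n = 4), with the mean and SD beside the points. In each panel the fresh TII arrays are the lowest, and the gap to the other groups is narrowest for M32167_at, whose fresh TII arrays start at 7.84.

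Vegfa rose in cultured TII compared with fresh TII cells on every probe set, but by different amounts. M32167_g_at moved most (2.32 ± 0.14, SE, adjusted p = 2.57e-08), and rc_AA850734_at was 3.27-fold higher (1.71 ± 0.11, adjusted p = 9.19e-08). L20913_s_at was 3.11-fold higher (1.64 ± 0.12, adjusted p = 1.98e-07). M32167_at moved least, at 1.67-fold (0.74 ± 0.08, adjusted p = 8.53e-06). The 4 probe sets did not overlap between these groups, which held for 43.3% of all probe sets. In RNA from a cell isolate, fewer cells of a type and less RNA per cell cannot be told apart.

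Fresh TI cells were also higher than fresh TII cells in Vegfa on all 4 probe sets, again with no overlap, as for 50.7% of all probe sets. The difference was 2.75 ± 0.13 for M32167_g_at (6.71-fold, adjusted p = 2.76e-09) and 2.44 ± 0.11 for rc_AA850734_at (5.43-fold, adjusted p = 1.98e-09). It was 2.11 ± 0.11 for L20913_s_at (4.31-fold, adjusted p = 9.12e-09) and 0.97 ± 0.07 for M32167_at (1.96-fold, adjusted p = 3.35e-07). The probe set with the smallest difference was therefore the same one in both comparisons with fresh TII, which share the fresh TII arrays. Under every alternative run, all 4 probe sets remained called in both comparisons. The fresh TII signals of M32167_g_at lay just above the lower quartile of their arrays (4.14 to 4.19), and without detection calls its differences may be lower bounds.

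Between cultured TII and fresh TI cells the Vegfa differences were smaller, and all were below 0. rc_AA850734_at was lower in cultured TII by 0.73 ± 0.11 (log2 difference -0.73, adjusted p = 0.000179), and L20913_s_at by 0.47 ± 0.12 (-0.47, adjusted p = 0.00487). Both calls held in every alternative run. M32167_g_at (-0.42 ± 0.14, adjusted p = 0.0173) lost its call without cultured TII replicate 2 (adjusted p = 0.0546) or 3 (adjusted p = 0.0827). M32167_at (-0.23 ± 0.08, adjusted p = 0.0257) lost it without cultured TII replicate 3 (adjusted p = 0.0958) or fresh TI replicate 4 (adjusted p = 0.0581), and with median centring (adjusted p = 0.0627). Scaling moved the size of these differences: with quantile normalization M32167_at stood at -0.63, L20913_s_at at -0.87 and rc_AA850734_at at -1.09, all called. Matching the standard deviation of the arrays moved the median of all probe sets to -0.02 in this comparison, against -0.13 as deposited, and put M32167_at at -0.44.

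The probe sets of Vegfa were then compared with each other through the difference between 2 probe sets on the same array, which cancels whatever changes both alike. Such a difference is not a comparison of their levels, but its change between groups shows that the probe sets reported different changes. On cultured TII arrays M32167_at minus M32167_g_at was 1.82, 2.11 and 2.15, on fresh TI arrays 1.99, 1.66, 1.77 and 1.91, and on fresh TII arrays 3.63, 3.62, 3.75 and 3.43. The fresh TII arrays stood apart from both other groups, which overlapped each other. The change was -1.58 ± 0.11 for cultured TII minus fresh TII (adjusted p over 3281 pairs = 4.04e-07) and -1.78 ± 0.10 for fresh TI minus fresh TII (adjusted p = 5.11e-08). Among the 3281 pairs of probe sets that share a gene on this array, 1.77% and 1.68% changed more than this.

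M32167_at also parted from the remaining probe sets. Its difference to rc_AA850734_at was 0.51, 0.64 and 0.54 on cultured TII arrays, 0.25, -0.13, -0.07 and 0.20 on fresh TI arrays, and 1.49, 1.32, 1.65 and 1.68 on fresh TII arrays. These 3 groups did not overlap, and the change was -0.97 ± 0.12 for cultured TII minus fresh TII (adjusted p = 3.90e-05) and -1.47 ± 0.11 for fresh TI minus fresh TII (adjusted p = 3.42e-07). Its difference to L20913_s_at was -0.17, 0.05 and 0.06 on cultured TII arrays, -0.25, -0.40, -0.39 and 0.01 on fresh TI arrays, and 0.98, 0.66, 0.92 and 0.96 on fresh TII arrays. It changed by -0.90 ± 0.12 (adjusted p = 7.67e-05) and -1.14 ± 0.11 (adjusted p = 3.49e-06) in the same comparisons, while cultured TII and fresh TI arrays overlapped.

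**Figure D3:**
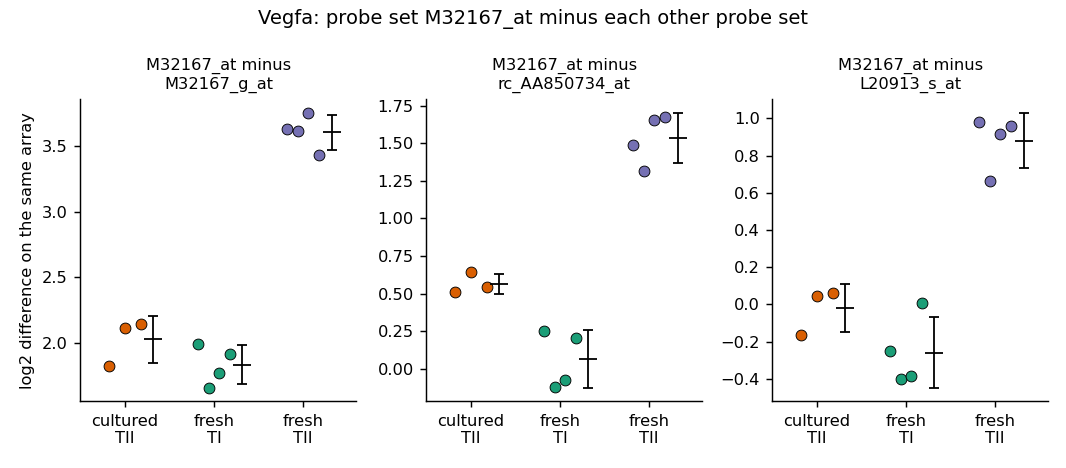
Log2 difference on the same array (vertical axis) between M32167_at and each other Vegfa probe set, a panel each, for cultured TII (n = 3), fresh TI (n = 4) and fresh TII arrays (n = 4), with the mean and SD beside the points. The fresh TII arrays lie highest in every panel, between 3.43 and 3.75 in the panel of M32167_g_at.

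Of the 6 Vegfa pairs, 2 changed between cultured TII and fresh TI, 5 between cultured TII and fresh TII, and 6 between fresh TI and fresh TII, against 39.0%, 26.3% and 35.2% of all pairs. No change was called between L20913_s_at and rc_AA850734_at for cultured TII minus fresh TII, where their difference moved by -0.07 ± 0.09 (adjusted p = 0.625, 95% interval -0.28 to 0.13). For fresh TI minus fresh TII it changed by -0.33 ± 0.09 (adjusted p = 0.00999). Between cultured TII and fresh TI the called pairs were M32167_at minus rc_AA850734_at (0.50 ± 0.12, adjusted p = 0.00444) and L20913_s_at minus rc_AA850734_at (0.26 ± 0.09, adjusted p = 0.0448), the second lost in 12 of 19 alternatives. For fresh TI minus fresh TII, rc_AA850734_at minus M32167_g_at (-0.31 ± 0.11, adjusted p = 0.0446) was likewise lost in 12 of 19. By an exact two-sided permutation test on the arrays, 5 of the 6 pairs reached p = 0.0286 for fresh TI minus fresh TII, the smallest that 4 against 4 arrays allow. With 3 against 4 arrays the smallest exact p is 0.0571, so no pair could pass 0.05 in the comparisons with culture. Which part of the transcript each probe set reads was not analysed here.

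Signs of RNA quality stood beside these results. The 3' minus 5' log2 signal of the actin control was -0.33 to -0.08 on cultured TII, 0.21 to 0.43 on fresh TI and 0.32 to 0.43 on fresh TII arrays. For the GAPDH control it was 0.30 to 0.45 on cultured TII, 0.41 to 0.69 on fresh TI and 0.47 to 0.57 on fresh TII arrays. The fresh groups overlapped in both controls, and the part of RNA quality in the differences between probe sets was not tested.

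Kdr, the main signalling receptor for VEGF-A (Entrez gene 25589, probe set U93306_at), was lower in cultured cells than in either fresh group. It read 3.15, 3.35 and 3.32 in cultured TII, 3.87, 4.10, 3.73 and 4.05 in fresh TI, and 3.73, 3.81, 3.76 and 3.97 in fresh TII cells. All cultured TII arrays lay below all fresh arrays, while the fresh groups overlapped. The difference was -0.66 ± 0.10 for cultured TII minus fresh TI (adjusted p = 0.000137) and -0.55 ± 0.10 for cultured TII minus fresh TII (adjusted p = 0.000826). Both calls held in every alternative run. Fresh TI minus fresh TII gave 0.12 ± 0.09 (adjusted p = 0.287, 95% interval -0.08 to 0.32), and the sign turned with matched standard deviations (-0.02). Every Kdr value lay below its array's lower quartile, which was 4.13 to 4.32. No detection calls were given, so it was not settled whether the probe set read above background.

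Flt1, the tight-binding VEGF-A receptor (Entrez gene 54251, probe set D28498_at), was not called in any comparison. It read 6.03, 5.53 and 5.91 in cultured TII, 6.12, 5.76, 5.97 and 6.48 in fresh TI, and 5.95, 5.94, 6.07 and 5.997 in fresh TII cells. The 3 groups overlapped, and the fresh TI arrays spread over 0.71 against 0.13 for fresh TII. The difference was -0.26 for cultured TII minus fresh TI (95% interval -0.59 to 0.07, adjusted p = 0.149) and -0.17 for cultured TII minus fresh TII (-0.49 to 0.16, adjusted p = 0.467). It was 0.09 for fresh TI minus fresh TII (-0.21 to 0.40, adjusted p = 0.580). Without fresh TI replicate 2 the first became a call (-0.37, adjusted p = 0.0410), and with array weights the second did (-0.29, adjusted p = 0.0484). The third turned to -0.038 without fresh TI replicate 4 and to -0.0054 with array weights.

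Edn1, the endothelin-1 gene (Entrez gene 24323, probe set M64711_at), was highest in cultured TII and lowest in fresh TI cells. It read 7.66, 7.70 and 7.82 in cultured TII, 4.74, 4.43, 4.19 and 4.78 in fresh TI, and 5.99, 6.48, 5.82 and 6.67 in fresh TII cells. The 3 groups lay apart, and the fresh TII arrays spread over 0.85. Edn1 was 9.16-fold higher in cultured TII than in fresh TI (3.20 ± 0.19, adjusted p = 4.61e-08), a difference that 0.584% of all probe sets exceeded in size. It was 2.81-fold higher in cultured TII than in fresh TII (1.49 ± 0.19, adjusted p = 4.28e-05). In fresh TI it was 3.26-fold lower than in fresh TII (-1.71 ± 0.18, adjusted p = 6.62e-06). All 3 calls held in every alternative run. The fresh TI signals were dim, and replicate 3 (4.19) lay below its array's lower quartile of 4.24. Without detection calls, both folds that involve fresh TI may therefore be lower bounds.

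The order of the groups thus differed between the ligand genes. Vegfa ran from fresh TI through cultured TII to fresh TII in falling order of the mean on all 4 probe sets, and Edn1 from cultured TII through fresh TII to fresh TI. For Vegfa the neighbours cultured TII and fresh TI were closest and overlapped on M32167_g_at, and for Edn1 no neighbouring groups overlapped.

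Ace (Entrez gene 24310, probe set U03734_at) showed small differences. It read 5.11, 4.94 and 4.98 in cultured TII, 5.46, 5.06, 5.30 and 5.75 in fresh TI, and 5.12, 4.85, 5.19 and 5.19 in fresh TII cells. Each pair of groups overlapped. Cultured TII minus fresh TI gave -0.39 ± 0.14 (adjusted p = 0.0313). This call was lost without cultured TII replicate 2 (adjusted p = 0.0928) or 3 (0.0784), without fresh TI replicate 1 (0.0687) or 4 (0.0707), and with quantile normalization (0.0711), matched standard deviations (0.0689), median centring (0.0532) or only these groups in the fit (0.0544). Cultured TII minus fresh TII gave -0.08 (95% interval -0.39 to 0.22, adjusted p = 0.741). Fresh TI minus fresh TII gave 0.31 (0.02 to 0.59, adjusted p = 0.0627), which became a call without fresh TI replicate 2 (0.42, adjusted p = 0.0109).

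**Figure D4:**
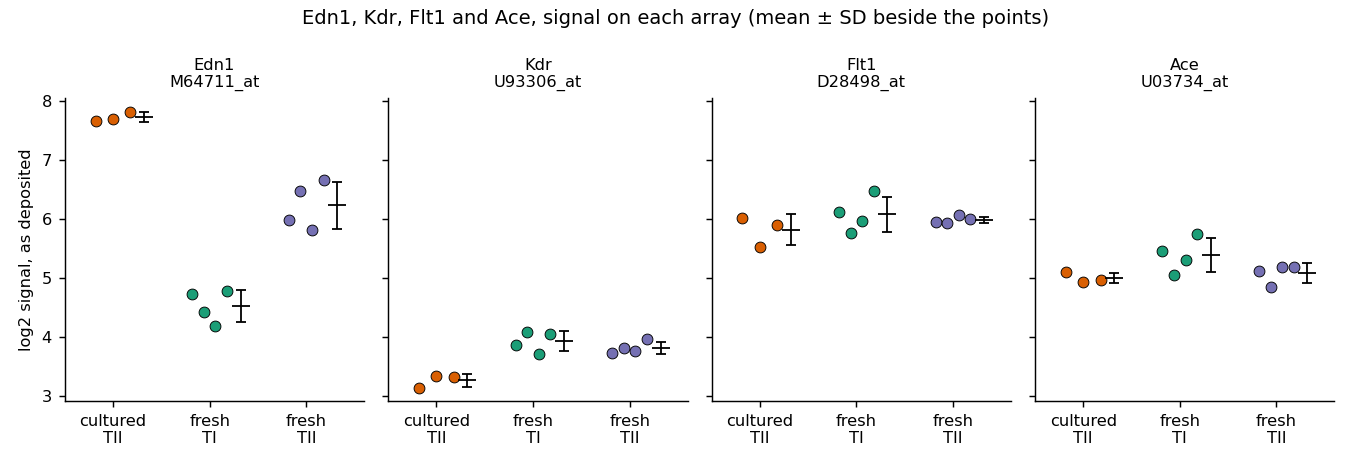
Log2 signal (vertical axis) of Edn1, Kdr, Flt1 and Ace, a panel each, on every array of cultured TII (n = 3), fresh TI (n = 4) and fresh TII cells (n = 4), with the mean and SD beside the points. The groups lie apart for Edn1, cultured TII lies below both fresh groups for Kdr, and all groups overlap for Flt1 and Ace.

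Because Kdr, Flt1 and Ace are known from endothelium, endothelial markers were read on the same arrays. Of 21 markers listed, 8 had a probe set, and Cdh5, Tek, Tie1 and Eng were among those not analysed here. The mean over the 8 was 5.63 to 5.69 on cultured TII, 5.81 to 6.11 on fresh TI and 5.68 to 5.71 on fresh TII arrays. None rose and 6 fell for cultured TII minus fresh TI, against 25.8% and 34.2% of all genes, for example the adhesion molecule gene Icam2 (-0.40 ± 0.07). By limma none of the 8 was called for cultured TII minus fresh TII, and 1 was below 0.05 before adjustment, the adhesion gene Pecam1 (-0.19, adjusted p = 0.0867), named after its value was seen. For fresh TI minus fresh TII 6 rose and none fell, Icam2 by 0.48 ± 0.07 and the endothelial selectin Sele by 0.35 ± 0.08, and without fresh TII replicate 1 the count was 3. Sele was dim, with a mean of 2.87 in fresh TI and 2.52 in fresh TII cells, below the lower quartile of every array. Vwf, the von Willebrand factor gene, was 0.27 ± 0.10 higher in fresh TI than in fresh TII (adjusted p = 0.0389), but its other probe set was not called (-0.02). Among all genes 33.0% were called higher and 21.2% lower in that comparison.

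Markers of other lung cells also moved. The mean over 18 fibroblast and smooth muscle markers was 5.64 to 6.12 on cultured TII, 5.91 to 6.14 on fresh TI and 5.29 to 5.47 on fresh TII arrays. For cultured TII minus fresh TI 5 of them rose and 6 fell, against 25.8% and 34.2% of all genes, and 3 rose without cultured TII replicate 2. For cultured TII minus fresh TII 5 rose, 1 fell and 12 were not called, against 20.5% and 14.0% of all genes, and with array weights 9 rose and 2 fell. The 5 were Tagln, an actin-binding gene of smooth muscle (5.03 ± 0.12), the elastic fibre gene Fbln5 (3.18 ± 0.12), Postn (1.15 ± 0.25), the smooth muscle actin gene Acta2 (0.47 ± 0.11) and Myl9 (0.26 ± 0.09). The other probe sets of Acta2 rose more, by 2.02 ± 0.42 and 1.73 ± 0.36, both called. Postn was dim, with a mean of 2.85 in cultured TII and 1.70 in fresh TII cells, below the lower quartile of every array. The elastin gene Eln fell by 0.64 ± 0.21, a call lost without fresh TII replicate 1, 3 or 4 or cultured TII replicate 2 or 3. The smooth muscle genes Myh11 (-0.20), Cnn1 (0.08) and Des (0.21) were not called. The fibroblast markers Col1a1 and Dcn were not called on the probe set used, but some of their other probe sets were called higher. For Dcn the others gave 1.17 and 1.21 (called) and 0.63 (not called). For Col1a1 they gave 0.68 (called), and 0.43 and 0.61 (not called). The other probe sets of Myh11, Pdgfra, Col3a1 and Thy1 were not called. In fresh TI minus fresh TII, 8 of the 18 rose and none fell, against 33.0% and 21.2% of all genes, among them the collagen gene Col3a1 (2.52 ± 0.47). The mean over 11 macrophage and leukocyte markers was 5.19 to 5.89 on cultured TII, 5.39 to 5.60 on fresh TI and 5.45 to 5.60 on fresh TII arrays. For cultured TII minus fresh TII 3 of them rose and 1 fell, against 20.5% and 14.0% of all genes. Cd53 (1.93 ± 0.43), Fcgr2b (1.78 ± 0.38) and Itgam (0.57 ± 0.13) rose, and Cd74 fell by 3.62 ± 0.32. Fcgr2b and Itgam were dim in fresh TII cells (3.16 and 3.24). For cultured TII minus fresh TI 4 rose and 4 fell, against 25.8% and 34.2%. For fresh TI minus fresh TII 3 rose and 2 fell, against 33.0% and 21.2%. The part of these cells in the member results was not tested.

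Other genes of the VEGF pathway were read from a list of 32, of which 19 were measured, each by its probe set with the highest mean. In cultured TII minus fresh TI 7 rose, 6 fell and 6 were not called, against 25.8% of all genes higher and 34.2% lower. Between cultured TII and fresh TII 7 rose, 2 fell and 10 were not called, against 20.5% and 14.0%. For fresh TI minus fresh TII 5 rose, 6 fell and 8 were not called, against 33.0% and 21.2%. Without fresh TII replicate 1 or fresh TI replicate 1 the count that rose was 3. The list's median difference was -0.13, 0.06 and 0.03, against -0.11, -0.01 and 0.11 over all genes.

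Nrp1, a co-receptor that holds VEGF-A next to Kdr, showed the greatest difference of the VEGF list in culture. Its mean was 3.86 ± 0.12 in cultured TII (SD, n = 3), 6.30 ± 0.23 in fresh TI and 7.27 ± 0.18 in fresh TII cells (n = 4 each). It fell by 3.41 ± 0.13 (SE) in cultured TII compared with fresh TII (adjusted p = 5.17e-10) and by 0.97 ± 0.12 in fresh TI compared with fresh TII (adjusted p = 3.10e-05). The cultured TII values of Nrp1 (3.73 to 3.96) lay below the lower quartile of those arrays (4.13 to 4.16). Without detection calls, its differences that involve cultured TII may be lower bounds. Vegfb, a VEGF that binds Flt1, averaged 6.65 ± 0.17 in cultured TII, 5.71 ± 0.07 in fresh TI and 6.32 ± 0.05 in fresh TII cells. Unlike Vegfa it was lower in fresh TI than in fresh TII, by 0.61 ± 0.08 (log2 difference -0.61, adjusted p = 3.50e-05). In cultured TII compared with fresh TII the kinase genes Akt1 (0.79 ± 0.11) and Ptk2 (0.77 ± 0.12), which carry signals below Kdr, rose, and the phospholipase gene Plcg1 fell by 0.71 ± 0.09. Map2k1, a kinase of the MAP kinase cascade, gave 1.16 for cultured TII minus fresh TI, but its other probe sets gave 1.07 and -0.53. Hif1a, the gene of the oxygen-regulated subunit that drives Vegfa transcription in low oxygen, was not called in any comparison (0.22, 0.16 and -0.06). It is given here for its role, outside the rule by which list genes were named. Its protein was not measured, so the RNA values do not show the activity of the factor.

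Of 17 endothelin pathway genes listed, 12 were measured. For cultured TII minus fresh TI 3 rose and 4 fell, for cultured TII minus fresh TII 1 rose and 3 fell, and for fresh TI minus fresh TII 1 rose and 3 fell. Over all genes the shares higher and lower were 25.8% and 34.2%, 20.5% and 14.0%, and 33.0% and 21.2% in this order, so the first counts were at the background and a single gene rose in each of the others. With quantile normalization or matched standard deviations the first of these counts became 1 higher and 2 lower, and without cultured TII replicate 3 it became 1 higher and 3 lower. The list's median difference was -0.21, -0.06 and -0.03, against -0.11, -0.01 and 0.11 over all genes. Furin, a protease that makes the first cuts in the endothelin precursor, was the gene of the list that rose in cultured TII compared with fresh TII: it averaged 8.34 ± 0.17 in cultured TII, 7.02 ± 0.25 in fresh TI and 7.15 ± 0.32 in fresh TII cells. The difference was 1.32 ± 0.17 for cultured TII minus fresh TI (adjusted p = 3.73e-05) and 1.19 ± 0.17 for cultured TII minus fresh TII (adjusted p = 0.000100). Its other probe set was called in neither (-0.06 and 0.18). Ece1, which encodes the enzyme that releases endothelin-1, gave 0.26 (adjusted p = 0.0305) and 0.17 (adjusted p = 0.201) in the same comparisons, and is given here for its role, outside the rule by which list genes were named. The other probe set of Ece1 gave 0.36 (adjusted p = 0.0259) and 0.34 (adjusted p = 0.0523). Mme, the gene of neprilysin, which degrades endothelin-1 and angiotensins, fell by 1.22 ± 0.09 in cultured TII compared with fresh TII. In fresh TI compared with fresh TII it fell by 0.95 ± 0.09, and its other probe set fell by 1.27 and 1.02 in these comparisons. The Mme values of cultured TII (3.55 to 3.86) and fresh TI (3.91 to 4.10) lay below the lower quartile of their arrays. Without detection calls, these falls may be lower bounds.

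Of 25 genes listed for the renin-angiotensin and kinin system, 18 were measured. For cultured TII minus fresh TI 4 rose and 7 fell, for cultured TII minus fresh TII 3 rose and 4 fell, and for fresh TI minus fresh TII 4 rose and 5 fell. Over all genes 25.8% rose and 34.2% fell in the first comparison, 20.5% and 14.0% in the second, and 33.0% and 21.2% in the third, and the counts of the list were close to these shares. The list's median difference was -0.22, -0.06 and 0.15, against -0.11, -0.01 and 0.11 over all genes. Leaving out fresh TII replicate 1, 2 or 4 or cultured TII replicate 2 turned the 3 that rose for cultured TII minus fresh TII into 1. The surface peptidase genes Anpep, which trims angiotensin III, and Enpep, which makes it from angiotensin II, both fell in cultured TII compared with fresh TII, by 1.89 ± 0.16 and 1.07 ± 0.10. In fresh TI compared with fresh TII they fell by 2.82 ± 0.15 and 0.83 ± 0.09. Between cultured TII and fresh TI, Anpep was 0.93 ± 0.16 higher in cultured TII, and its other probe sets gave 0.47 (called) and 0.13 (not called). Both other probe sets of Anpep also fell in cultured TII compared with fresh TII, by 1.03 and 0.43. Kng2, a kininogen gene of the rat (kininogens being the precursors of the kinins that Ace degrades), averaged 10.3 in cultured TII, 6.13 in fresh TI and 7.67 in fresh TII cells. It was 2.61 ± 0.11 higher in cultured TII than in fresh TII (adjusted p = 1.11e-09) and fell by 1.54 ± 0.10 in fresh TI compared with fresh TII (adjusted p = 8.44e-08). Agtr1a, an angiotensin II receptor gene, was lower in cultured TII than in fresh TI (-0.67 ± 0.10, adjusted p = 0.000165), and 2 of its 3 other probe sets were called in the same direction. Agtr1b, a near copy whose RNA the same probe sets may read, gave -0.26 (adjusted p = 0.0126) in that comparison. The other probe sets of Agtr1b gave -0.41, -0.37 and -0.39 there, all called.

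**Figure D5:**
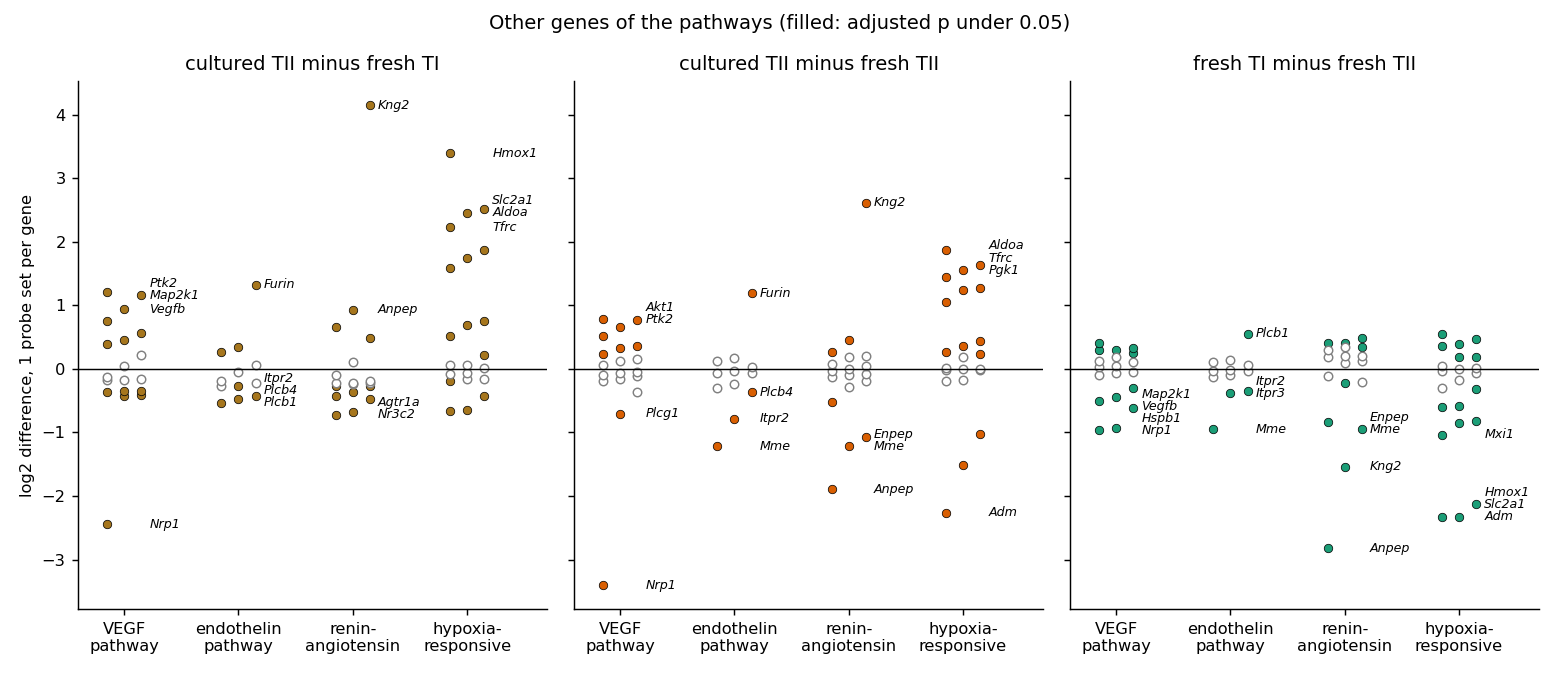
Log2 difference of each measured gene (vertical axis, 1 probe set per gene) in the VEGF, endothelin, renin-angiotensin and hypoxia lists (horizontal axis) for the 3 comparisons, with filled points where the adjusted p was under 0.05 and the most changed genes named. Nrp1 lies lowest of the VEGF list in all 3 panels, and Kng2 lies highest of the renin-angiotensin list in both comparisons of cultured TII, at 4.15 and 2.61.

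Vegfa is a textbook target of hypoxia-inducible factors, so other genes known to respond to low oxygen were read from a list of 29, of which 22 were measured. For cultured TII minus fresh TII 11 rose, 3 fell and 8 were not called. For cultured TII minus fresh TI 11 rose and 4 fell, and for fresh TI minus fresh TII 6 rose and 9 fell. Among all genes 20.5% were higher and 14.0% lower for cultured TII minus fresh TII, 25.8% and 34.2% for cultured TII minus fresh TI, and 33.0% and 21.2% for fresh TI minus fresh TII. The 6 of 22 hypoxia genes that rose in the last comparison were near the share over all genes, and 9 of 22 fell, against 21.2%. Over 18 alternatives these counts ran from 4 to 6 and from 8 to 10. The count of 11 higher for cultured TII minus fresh TII became 7 without cultured TII replicate 2. The list's median difference was 0.14 for cultured TII minus fresh TI, 0.21 for cultured TII minus fresh TII and -0.11 for fresh TI minus fresh TII, against -0.11, -0.01 and 0.11 over all genes.

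Several hypoxia genes lay lower in fresh TI than in fresh TII cells, opposite to Vegfa, while 6 of the 22 were called higher, as Vegfa was. The part of low oxygen in the Vegfa differences was not tested. Slc2a1, the glucose transporter gene, averaged 7.74 ± 0.29 in cultured TII, 5.23 ± 0.32 in fresh TI and 7.56 ± 0.13 in fresh TII cells, and fell by 2.33 ± 0.15 in fresh TI compared with fresh TII (adjusted p = 8.89e-08). Its other probe set fell by 0.64 ± 0.08 there. Adm, the gene of the vessel-relaxing peptide adrenomedullin, fell by 2.33 ± 0.19 in fresh TI and by 2.26 ± 0.20 in cultured TII, each compared with fresh TII. Hmox1, the haem oxygenase gene, fell by 2.13 ± 0.42 in fresh TI compared with fresh TII. In culture the glycolytic gene Aldoa (1.87 ± 0.10) and the transferrin receptor gene Tfrc (1.63 ± 0.21) rose compared with fresh TII. The probe sets of the glycolytic gene Pgk1 also disagreed for cultured TII minus fresh TII: the brightest rose by 1.55 ± 0.20 and M31788_g_at by 1.72 ± 0.13, while M31788_at gave 0.07 ± 0.11 (adjusted p = 0.729).

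The genes most like each member over the 11 arrays were ranked by Pearson r, as a description in which all points share the same arrays and groups. Closest to the brightest Vegfa probe set, M32167_at, were Nudt4, Cryab and Nras (r = 0.984 each) and the type I markers Akap5 (r = 0.981) and Pdpn (r = 0.980). Cryab averaged 8.76 in cultured TII, 9.48 in fresh TI and 5.56 in fresh TII cells, and Pdpn averaged 9.35, 10.1 and 5.66 in the same groups. Closest to Edn1 were Areg (r = 0.983), Nupr1 (r = 0.983) and Tpp2 (r = 0.979), and Areg, which encodes a ligand of the EGF receptor, averaged 8.99 in cultured TII, 5.41 in fresh TI and 7.04 in fresh TII cells. Kdr ran closest to Fmo1 (r = 0.941), Acsl4 (r = 0.937) and Apob (r = 0.935). Flt1 ran closest to Muc2 (r = 0.965), Or2t26 (r = 0.960) and Lenep (r = 0.954), and Ace to Grm7 (r = 0.979), Nr3c1 (r = 0.967) and Gipc1 (r = 0.960). At r of at least 0.9 there were 71 genes for Vegfa, 156 for Edn1, 139 for Ace and 25 each for Kdr and Flt1.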

How the data were processed

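Total RNA of 11 samples was measured on Affymetrix rat arrays. The deposited table holds 1 log2 value per probe set and array, as processed by the authors. The labels do not state how signals were summarised and normalized, and log base 2 was inferred from the range of values. Of 8799 probe sets, 59 controls were kept apart and 8740 tested without a filter on dim signal. The annotation gave exactly 1 gene for 7006, several for 308 and none for 1426. With 3 or 4 arrays per group, array number limits the precision.

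The values were fitted as deposited with limma 3.58.1 (lmFit with 3 group means over all arrays, eBayes, two-sided) in R 4.3.3, with Benjamini-Hochberg adjustment over all probe sets and calls at an adjusted p under 0.05. The difference between every 2 probe sets of 1 gene (3281 pairs) was fitted in the same way, with exact permutation tests (scipy 1.17.1) for the Vegfa pairs. The procedure was also run on simulated data with independent noise and far fewer changed probe sets than were called here. That run is not used as support for the results. Every member probe set is named, with up to 4 called genes of each list and comparison by size, and the genes most alike in pattern. The members and lists were chosen with earlier results of these data known. Promoters and gene positions are from RefSeq (GRCr8). All 7 member genes were found there, and the sequences came from a table of 33469 promoters. Alternatives were quantile normalization, median centring, matched standard deviations, a filter on dim probe sets, an intensity trend, a robust fit, fits on 2 groups, array weights, the replicate block, an adjusted p under 0.01, and leaving out each array.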

Additional observations from a re-analysis of the deposited data

How the results depend on the processing

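Over 21 alternatives, 474 of 498 results for single member probe sets kept their direction and their side of the threshold, 17 lost a call, 4 gained one and 3 turned sign. For the Vegfa pairs 292 of 324 were kept over 18 alternatives, with 2 sign changes. The values that turned were all small: Kdr for fresh TI minus fresh TII was -0.023 with matched standard deviations, Flt1 in that comparison was -0.0054 with array weights and -0.038 without fresh TI replicate 4 (up to 0.20 without other arrays), and for cultured TII minus fresh TI the pair M32167_at minus M32167_g_at was -0.13 with quantile normalization and the pair L20913_s_at minus M32167_g_at was 0.0043 without fresh TI replicate 1 (down to -0.11 without other arrays). Testing only the brighter probe sets, which are fewer, gave 2993 calls against 5235 for cultured TII minus fresh TI and 2671 against 4783 for fresh TI minus fresh TII. At an adjusted p under 0.01, 4 member probe sets against 7 were called for cultured TII minus fresh TI. Without single arrays that count ran from 4 to 8, and the Vegfa pairs called there from 1 to 3. The exact permutation test called 0 pairs for cultured TII minus fresh TI (2 by limma) and 0 for cultured TII minus fresh TII (5 by limma), since 3 against 4 arrays cannot reach 0.05. Replicate numbers did not pair the arrays: array deviations from their group means correlated at -0.20 to 0.28 in the 10 same-number pairs and at -0.27 to 0.23 in the 30 others, and 2 of 11 arrays correlated best with their own number. With the replicate block, 6 member probe sets against 7 were called for cultured TII minus fresh TI and 6 against 5 for fresh TI minus fresh TII, and the counts over all probe sets were 4754 against 5235, 2750 against 2918 and 4787 against 4783. Vegfa M32167_at for cultured TII minus fresh TI was -0.19 (adjusted p = 0.0662) and the pair L20913_s_at minus rc_AA850734_at 0.25 (adjusted p = 0.102), both no longer called, while rc_AA850734_at minus M32167_g_at in that comparison (-0.37, adjusted p = 0.0210) and Ace for fresh TI minus fresh TII (adjusted p = 0.0158) became calls. The cause of these changes was not tested. No detection calls were used, so signal over background limits what the dim probe sets, Kdr above all, can show.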
